A study of Rattus norvegicus with 6 samples.

Results

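The insulin-like growth factor (IGF) family is described here in regenerated rat sciatic nerve: the ligands Igf1 and Igf2, the receptors Igf1r and Igf2r, and the binding proteins Igfbp2 to Igfbp7. These 10 genes were taken by symbol from a table of 23091 genes, each symbol had 1 entry, and all 10 were abundant enough to be tested among 13999 genes. Messenger RNA was sequenced from wild-type male Sprague-Dawley rats with a sciatic nerve defect. In the GDNF-Gel/HA-Mg group (3 libraries, called conduit 1 to 3) the defect received a nerve conduit of that name, whose makeup the labels do not describe (GDNF is the usual abbreviation of glial cell line-derived neurotrophic factor). In the NC group (3 libraries) the wound was closed with no implant. All 6 libraries therefore come from injured nerve, and none from intact nerve. The labels give neither the rats' age, nor the time after surgery, nor whether tissue of several rats was pooled. They also do not say that libraries came from separate animals, so each p-value reflects the spread among these libraries, which may not be the spread between animals.

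IGF-I and IGF-II are small secreted proteins related to insulin. Both signal through the tyrosine kinase receptor encoded by Igf1r, whereas the product of Igf2r, also the cation-independent mannose 6-phosphate receptor, takes IGF-II into the cell and delivers it to lysosomes. The binding proteins hold IGFs in the extracellular space and either shield them from the receptor or deliver them to it. In injured peripheral nerve, IGFs are known as factors for Schwann cell survival and axon growth.

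Some marker levels differed widely among libraries of 1 group, and total counts lay between 15897850 and 18491379. Haemoglobin took 8.08% to 14.8% of counts in the conduit libraries and 1.02% to 25.2% in the NC libraries, with the top value in NC 3. Summed levels of 8 Schwann cell markers, all of them in the table, ran from 1763 to 17701 CPM (counts scaled by library size, the same unit for every library) in the conduit libraries and from 2033 to 35323 CPM in the NC libraries. The highest Schwann sum was that of NC 2 and the lowest that of conduit 2. Adipocyte markers summed to 2022 to 4209 CPM in the conduit libraries and 1515 to 10606 CPM in the NC libraries, and their top value was again in NC 3. Skeletal muscle markers summed to 73.5 to 7270 CPM in the conduit libraries and 25.4 to 1170 CPM in the NC libraries. In whole tissue, fewer cells of a type and less RNA per cell cannot be told apart. None of the 9 marker sums differed between the groups beyond their spread, with an exact permutation p (two-sided) of 0.3 at the lowest where 0.1 is the smallest possible.

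The promoter stretches of 4 members are shown: the ones that hold a TATA form or TCACGTGA, and the one with the most GGGCGG matches. Each is the 150 bases before the annotated start of the gene in the RefSeq table (build GRCr8), which held all 10 members with 11 starts. Capitals mark the motifs searched, on both strands: TATAAA and TATATA (forms of the TATA box), TCACGTGA (a core of the element that lysosomal genes share), GGGCGG (a GC box) and TGANTCA (the AP-1 site).
Igf2r (chr1:50526728-50526877, + strand): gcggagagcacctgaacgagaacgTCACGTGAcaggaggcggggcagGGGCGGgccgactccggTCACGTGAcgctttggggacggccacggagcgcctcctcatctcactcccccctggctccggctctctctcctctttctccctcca
Igfbp3 (chr14:86277945-86278094, - strand): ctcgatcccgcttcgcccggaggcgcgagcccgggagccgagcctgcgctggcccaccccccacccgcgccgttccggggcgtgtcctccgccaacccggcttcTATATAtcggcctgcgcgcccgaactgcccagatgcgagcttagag
Igfbp4 (chr10:84491321-84491470, + strand): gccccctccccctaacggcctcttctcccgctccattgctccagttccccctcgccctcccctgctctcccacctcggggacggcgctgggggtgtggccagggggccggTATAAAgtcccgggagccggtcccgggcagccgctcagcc
Igfbp7 (chr14:31091586-31091735, + strand): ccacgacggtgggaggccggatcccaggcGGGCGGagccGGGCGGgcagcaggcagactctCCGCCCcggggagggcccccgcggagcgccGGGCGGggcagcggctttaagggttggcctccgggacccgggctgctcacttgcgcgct
The Igf2r stretch held TCACGTGA at 2 places, with first bases at -126 and -86 from the start, a motif found in 0.517% of 33469 stretches of the same length over all genes, and it held GGGCGG as well. TATATA stood at -46 in Igfbp3, where 3.16% of all stretches hold it, and TATAAA stood at -40 in Igfbp4, against 8% of all stretches. Igfbp7 had 4 matches to GGGCGG, a motif in 26% of all stretches and in 4 of the 11 stretches of the family (the others are Igf2r and, not printed, Igf2 and Igfbp2). TGANTCA was in none of the 11 and in 3.69% of all stretches. The motifs were chosen after the promoters were read, so the percentages are background and no test of the family. The matches are descriptions of letters in these windows.

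The comparison of the groups asks how the conduit changed expression in the regenerating nerve. For the IGF family it gave no call. edgeR's quasi-likelihood test with Benjamini-Hochberg adjustment over all genes called 0 of the 10 members higher and 0 lower, with 0% called among all genes, and adjusted p was 1.0 for each member. At an unadjusted p under 0.05 it found 0 members, where 1.72% of all genes passed. DESeq2 called 0 members, with 0.0786% called among all genes, and limma-voom also called 0. In no member did all 3 libraries of one group lie above all 3 of the other, an arrangement seen in 5.69% of all genes (2.81% with the conduit above NC and 2.88% with it below). The log2 fold change was positive in 7 members and negative in 3, with a median of 0.06, beside 47% positive and a median of -0.01 over all genes tested. The count of positive members rested on single libraries: it was 3 of 10 without conduit 2 and 5 of 10 without NC 2.

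**Figure D1:**
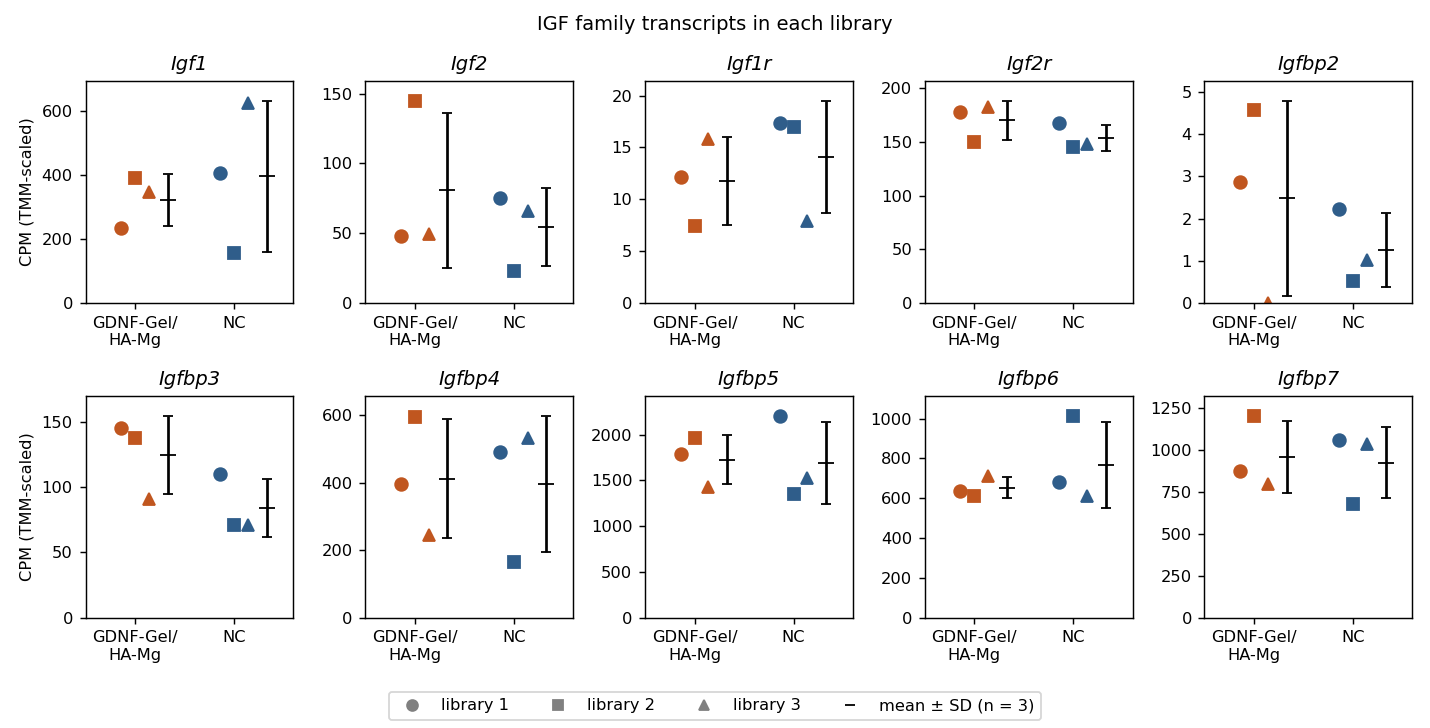
Level of each IGF family transcript in CPM (TMM-scaled) in the 3 GDNF-Gel/HA-Mg libraries and the 3 NC libraries. Points are libraries, with a shape for each library number, and bars give the mean and SD; the groups overlap in all 10 panels, and Igfbp2 was at 0 in conduit library 3.

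Of the ligands, Igf1 stood at 233, 390 and 346 CPM in conduit 1, 2 and 3, and at 408, 155 and 625 CPM in NC 1, 2 and 3. The conduit libraries lay inside the range of the NC libraries, which held both the highest value (NC 3) and the lowest (NC 2). The means were 323 ± 80.7 CPM with the conduit and 396 ± 235 CPM in NC (SD, n = 3 each). Igf1 had a log2 fold change of -0.29 ± 0.50 (SE), with an approximate 95% interval of -1.52 to 0.93. Without NC 3 the value was 0.19. The summed adipocyte, macrophage, endothelial and red cell markers were each highest in NC 3 and lowest in NC 2, as Igf1 was. The libraries in between did not follow Igf1 in every list. In NC 1, where Igf1 was at 408 CPM, red cell markers summed to 10244 CPM, near the 9476 CPM of NC 2. The part of these cell types in the Igf1 level was not tested.

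Igf2 stood at 47.8, 145 and 49.5 CPM in the conduit libraries and at 75.1, 22.7 and 65.8 CPM in the NC libraries. Conduit 2 held the top value, 3.03 times the lowest of its own group, and NC 2 the lowest of all. The means were 80.6 ± 55.4 CPM with the conduit and 54.5 ± 28.0 CPM in NC. Igf2 had a log2 fold change of 0.56 ± 0.61 (SE, interval -0.92 to 2.05), which was -0.17 without conduit 2. Relative to one another, Igf1 had 4.88, 2.69 and 6.99 counts for each count of Igf2 in the conduit libraries, against 5.43, 6.84 and 9.51 in the NC libraries. The ratio moved 3.53-fold over the 6 libraries, with the lowest value in conduit 2, and its groups overlapped.

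H19, a non-coding RNA beside Igf2 in the RefSeq table and known to share imprinting control with it, did not follow Igf2 in every library. It stood at 183, 642 and 1122 CPM in the conduit libraries and at 332, 66.0 and 525 CPM in the NC libraries. Both transcripts were lowest in NC 2. In conduit 3, where H19 was highest, it had 22.7 counts for each count of Igf2, whereas the ratio was 3.84 and 4.44 in conduit 1 and 2 and 4.42, 2.91 and 7.99 in the NC libraries. The summed skeletal muscle markers (7270 CPM) and perineurial markers (3855 CPM) were highest in conduit 3 too. Most of that perineurial sum was Itgb4 (3246 CPM). Itgb4 and Cldn1 were highest in conduit 3, whereas Slc2a1 and Ntn4 were highest in NC 2. In NC 2, where H19 was lowest, the perineurial sum was 3256 CPM. The part of muscle and perineurial tissue in the H19 level was not tested. H19 had a log2 fold change of 1.08 ± 0.89 (SE), which did not pass the test. It was 0.42 without conduit 3, 0.60 without NC 2, 1.70 without NC 3 and 0.51 with haemoglobin level as a covariate.

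Of the receptors, Igf1r stood at 12.1, 7.39 and 15.9 CPM in the conduit libraries and at 17.4, 17.0 and 7.88 CPM in the NC libraries. Its counts were 109 to 335 per library, and its low libraries were conduit 2 and NC 3, 1 in each group. The means were 11.8 ± 4.24 CPM with the conduit and 14.1 ± 5.38 CPM in NC. The log2 fold change of -0.26 ± 0.40 (SE, interval -1.24 to 0.72) changed sign, to 0.23, with haemoglobin level as a covariate.

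Igf2r was the steadiest member. It stood at 178, 150 and 183 CPM in the conduit libraries and at 168, 145 and 148 CPM in the NC libraries, so that the highest library was only 1.26 times the lowest. The means were 170 ± 17.9 CPM with the conduit and 154 ± 12.3 CPM in NC. For Igf2r the log2 fold change was 0.14 ± 0.14 (SE), and the interval of -0.19 to 0.48 excludes a 2-fold difference in either direction. Igf2 counts came to 0.269, 0.967 and 0.270 per count of Igf2r in the conduit libraries and to 0.447, 0.156 and 0.443 in the NC libraries, a spread that followed the ligand.

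Among the binding proteins, Igfbp3 came nearest to separating the groups. Igfbp3 is the main carrier of IGFs in blood, where it forms a complex with the acid-labile subunit. It stood at 145, 138 and 90.6 CPM in the conduit libraries and at 110, 71.2 and 70.8 CPM in the NC libraries. Conduit 1 and 2 lay above all NC libraries, while conduit 3 lay below NC 1. The means were 125 ± 29.7 CPM with the conduit and 83.9 ± 22.3 CPM in NC. edgeR gave Igfbp3 a log2 fold change of 0.57 ± 0.26 (SE, interval -0.07 to 1.21), an unadjusted p of 0.0714 and an adjusted p of 1.0. The unadjusted p in edgeR was 0.0216 without NC 1 and 0.0263 without conduit 3. It was 0.198 without conduit 1, 0.175 without conduit 2, 0.171 without NC 2 and 0.181 without NC 3.

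Igfbp2 was the scarcest member by counts, and its protein is known to bind integrins through an RGD sequence. It had 49, 84 and 0 counts in the conduit libraries and 43, 9 and 14 counts in the NC libraries. These are 2.87, 4.56 and 0 CPM with the conduit and 2.23, 0.520 and 1.01 CPM in NC. Conduit 3 was thus at least 25.8-fold lower than conduit 2, taking 3 counts as the limit that a count of 0 allows (0.177 CPM, counting error only). The log2 fold change of 0.97 ± 1.33 (SE) has an interval of -2.26 to 4.20, which excludes neither a higher nor a lower level, and the conduit libraries alone ran from 0 to 84 counts. limma-voom gave it the opposite sign, -0.55.

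Igfbp4, which is cut by the protease PAPP-A to release its IGF, stood at 396, 595 and 244 CPM in the conduit libraries and at 489, 165 and 533 CPM in the NC libraries. The lowest library was NC 2 and the highest conduit 2. The means were 412 ± 176 CPM with the conduit and 396 ± 201 CPM in NC, with a log2 fold change of 0.06 ± 0.52 (SE, interval -1.20 to 1.32). The sign turned without conduit 2 (-0.31), without NC 2 (-0.31) and with the haemoglobin covariate (-0.15).

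Igfbp5, a binding protein that attaches to extracellular matrix, stood at 1789, 1963 and 1430 CPM in the conduit libraries and at 2202, 1353 and 1526 CPM in the NC libraries. The means were 1727 ± 271 CPM with the conduit and 1694 ± 449 CPM in NC. Its log2 fold change was 0.03 ± 0.26 (SE), with an interval of -0.61 to 0.67, and turned to -0.07 without conduit 2, -0.11 without NC 2 and -0.05 without NC 3. Igfbp2 and Igfbp5 are next to each other in the RefSeq table. Each relative to its own mean over the 6 libraries, Igfbp2 stood at -3.34 log2 units in conduit 3 (a count of 0 with the prior count added) and Igfbp5 at -0.24.

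Igfbp6, which prefers IGF-II over IGF-I, was the binding protein whose highest library was NC 2. It stood at 636, 609 and 713 CPM in the conduit libraries and at 681, 1012 and 610 CPM in the NC libraries. The means were 653 ± 54.2 CPM with the conduit and 768 ± 215 CPM in NC. Its log2 fold change was -0.23 ± 0.23 (SE, interval -0.80 to 0.34), and it was 0.016 without NC 2.

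Igfbp7, a low-affinity IGF binder made by vessels among other tissues, stood at 878, 1204 and 801 CPM in the conduit libraries and at 1059, 680 and 1035 CPM in the NC libraries. The means were 961 ± 214 CPM with the conduit and 925 ± 212 CPM in NC. Its log2 fold change was 0.06 ± 0.26 (SE, interval -0.58 to 0.69), and -0.14 without conduit 2, -0.12 without NC 2 and -0.037 with the haemoglobin covariate. The intervals of Igf2r, Igfbp5, Igfbp6 and Igfbp7 excluded a 2-fold difference either way, as did those of 65.8% of all genes. For the other 6 members a difference of that size was not excluded.

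**Figure D2:**
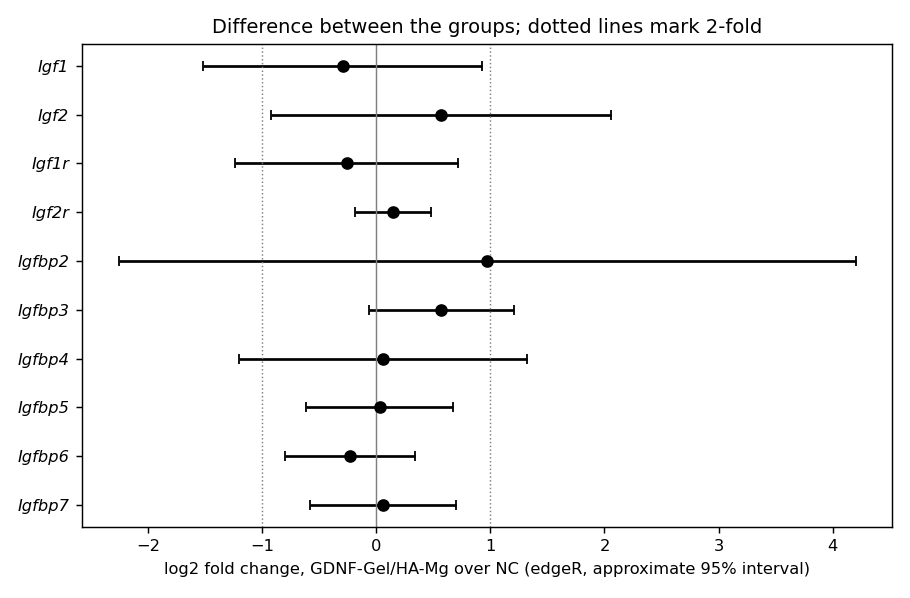
Log2 fold change of each member, GDNF-Gel/HA-Mg over NC, with approximate 95% intervals from edgeR; dotted lines mark a 2-fold difference. Every interval includes 0, the widest is that of Igfbp2 (-2.26 to 4.20) and the narrowest that of Igf2r (-0.19 to 0.48).

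The mix of binding-protein transcripts can be compared between libraries without scaling to depth. Igfbp3 made up 3.78%, 3.05% and 2.76% of the counts of the 6 binding proteins in the conduit libraries, against 2.41%, 2.17% and 1.87% in the NC libraries. All conduit values lay above all NC values, and the Wilson 95% intervals were at most 0.292 percentage points wide, for counting error only. This share was chosen after its values were seen and is given without a test. How often such shares separate the groups for other genes was not counted. Relative to Igfbp6 alone the groups overlapped, with 0.127 counts of Igfbp3 per count of Igfbp6 in conduit 3 and 0.161 in NC 1. The CPM of Igfbp3 overlapped as well. The mean share was 3.20 ± 0.52% with the conduit and 2.15 ± 0.27% in NC. The share of Igfbp6 was 16.5%, 13.5% and 21.8% with the conduit and 15.0%, 30.8% and 16.2% in NC, with NC 2 far above the rest. Igfbp5 held 43.5% to 46.5% in the conduit libraries and 40.4% to 48.5% in the NC libraries. Igfbp4 held 7.45% to 13.2% with the conduit and 5.02% to 14.1% in NC. The family as a whole took 0.373% to 0.518% of all counts in the conduit libraries and 0.355% to 0.611% in the NC libraries. It was lowest in NC 3, where haemoglobin took the most counts, yet only 0.394% in NC 2, where haemoglobin took the least. The part of haemoglobin in this share was not tested.

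**Figure D3:**
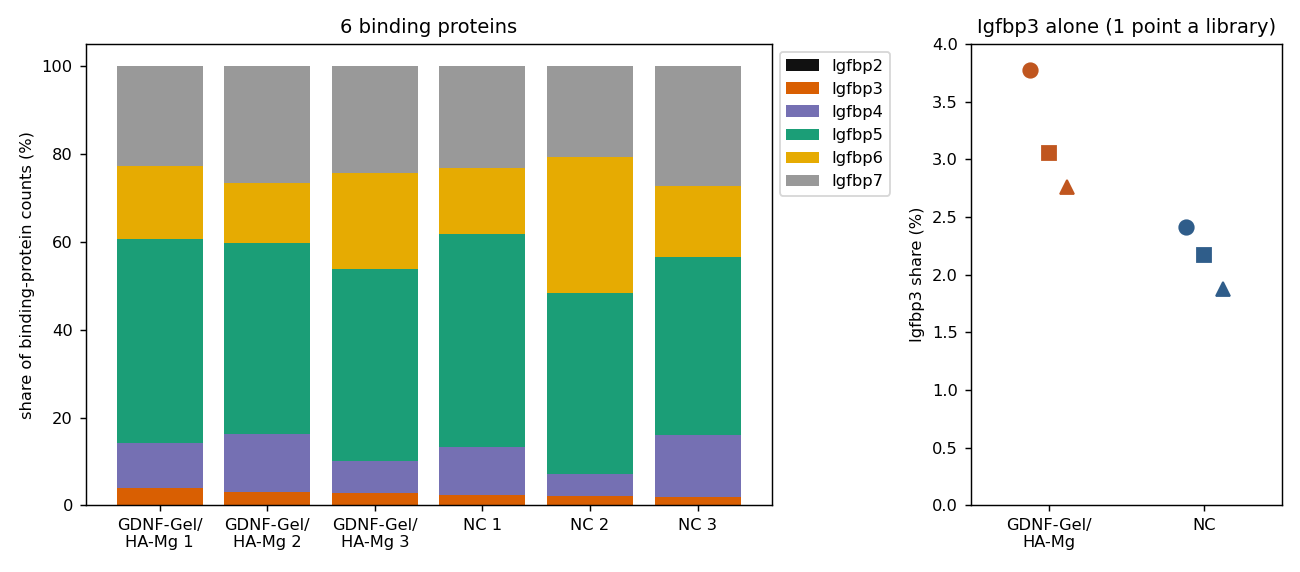
Left, share of each binding protein in the summed counts of the 6 binding proteins, in percent, per library; right, the Igfbp3 share alone with 1 point a library. Igfbp3 lay between 2.76% and 3.78% in the conduit libraries and between 1.87% and 2.41% in the NC libraries, and Igfbp6 reached 30.8% in NC 2.

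Members differed in how far they varied over the libraries. Across the 6 libraries the log2 CPM of Igfbp2, Igf2, Igf1 and Igfbp4 spanned 5.33, 2.67, 2.01 and 1.85 units. Those spans were larger than in 98.5%, 91.8%, 85.9% and 84.1% of all genes tested, whose median span was 0.74. The span of Igf2r, 0.33, was larger than in only 13.4% of genes. Igf1r and Igfbp3 spanned 1.22 and 1.04 units, and Igfbp5, Igfbp6 and Igfbp7 0.70, 0.73 and 0.82. NC 2 held the lowest level of 6 members (Igf1, Igf2, Igf2r, Igfbp4, Igfbp5 and Igfbp7), and conduit 2 the highest level of 4 (Igf2, Igfbp2, Igfbp4 and Igfbp7).

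In log2 units relative to the mean of the 6 libraries, NC 2 stood at -1.08 for Igf1, -1.35 for Igf2 and -1.16 for Igfbp4. It stood at 0.54 for Igfbp6 and 0.47 for Igf1r. Schwann cell markers stood at 2.37 in this library, fibroblast markers at -0.12, endothelial markers at -0.63 and adipocyte markers at -1.12. In conduit 2, Schwann cell markers stood at -1.96, while Igf2 stood at 1.31, Igfbp4 at 0.69 and Igf1r at -0.72. The Schwann list did not move as one in that library. Ngfr, the low-affinity neurotrophin receptor, reached 380 CPM in conduit 2, second to 434 CPM in NC 1. Sox10 and Erbb3 stood at 122 and 135 CPM in conduit 2, above the 21.8 and 66.9 CPM of NC 3. The part of tissue makeup in these levels was not tested.

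**Figure D4:**
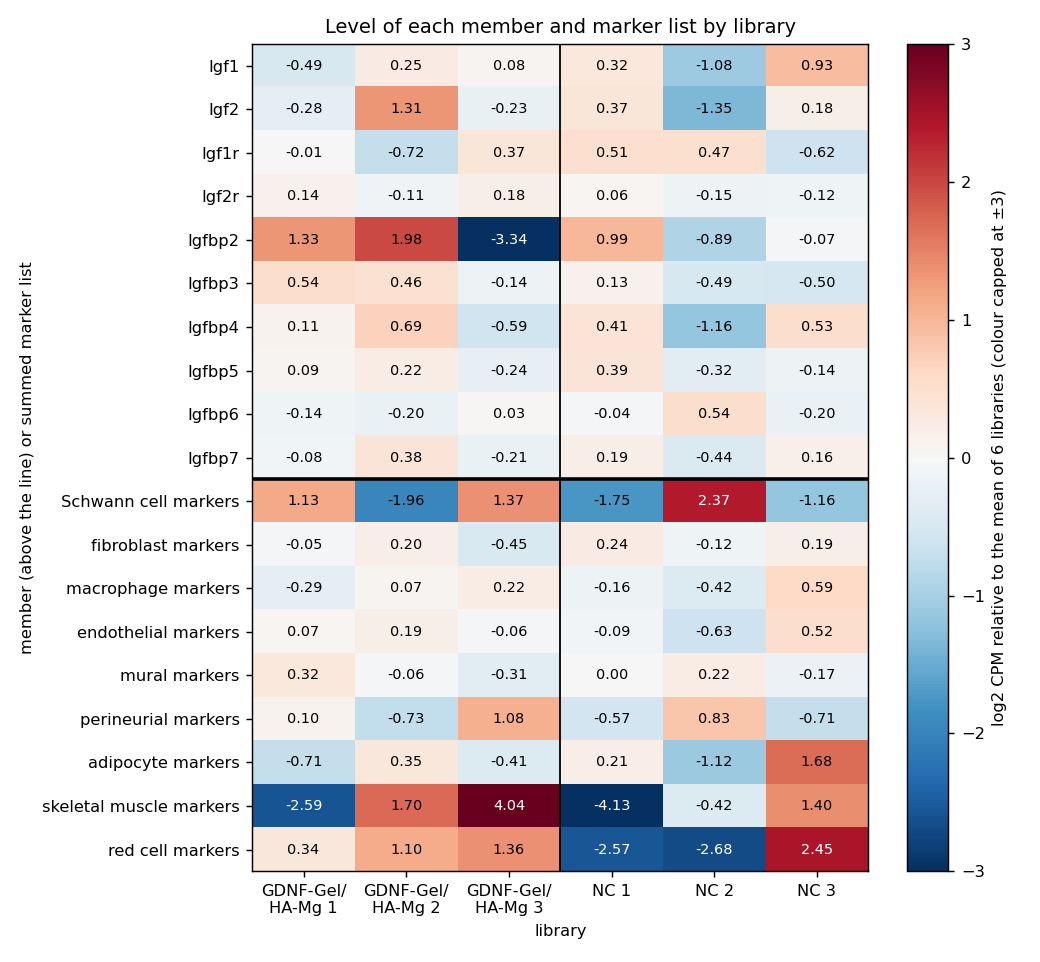
Log2 CPM relative to the mean of the 6 libraries for each member (above the thick line) and for the summed level of each marker list (below it), with GDNF-Gel/HA-Mg libraries left of NC libraries and the colour capped at ±3. NC 2 is low for Igf1 (-1.08), Igf2 (-1.35) and Igfbp4 (-1.16), high for Igfbp6 (0.54), and highest for Schwann cell markers (2.37).

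Among pairs of members, Igfbp5 and Igfbp7 were most alike over the 6 libraries, with a root mean square difference of 0.18 log2 units between their centred levels. Igf2 and Igfbp4 differed by 0.37 and Igf1 and Igfbp4 by 0.44. Outside the family, the genes most like each member were sought among 11209 genes, for the members that spanned at least 1 log2 unit. They were picked for sharing a member's levels over the 6 libraries, so that likeness is no separate result. Among so many genes, close matches over 6 libraries can also arise by chance. The nearest to Igf1 were Strip2 (0.13) and Asah2, a neutral ceramidase (0.15), against a median of 0.67 over all genes searched. Those nearest to Igf2 were the eosinophil-attracting chemokine Ccl11 (0.17) and the entry named TRB (0.24), with a median of 0.83. Ccl11 stood at 45.1, 193 and 49.6 CPM in the conduit libraries and at 83.8, 21.4 and 67.1 CPM in the NC libraries. It was high and low in the same libraries as Igf2, which follows from the search. Igf1r lay nearest to the transcription factor Sox9 (0.10) and to Ncald (0.14). Igfbp4 lay nearest to Tspan7 (0.10) and Uba7 (0.11), and Igfbp3 to Masp1, a protease of the lectin pathway of complement (0.12), and Sla (0.12). Igfbp2 had no close match: the matrix protein gene Tnc (0.69) and the collagen gene Col9a2 (0.73) came first. Both of these were lowest in conduit 3, at 62.0 CPM for Tnc and 1.24 CPM for Col9a2, as Igfbp2 was and as the search favours.

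Other genes of the pathway were taken from 7 lists with 57 symbols, of which 51 were tested. edgeR called 0 of the 51 higher and 0 lower, and 0 passed an unadjusted p under 0.05, where 1.72% of all genes did. DESeq2 and limma-voom also called 0 of them. The log2 fold change was negative in 36 and positive in 15, with a median of -0.08, beside 47% positive and a median of -0.01 over all genes. The groups did not overlap for 3 of the 51, a share near the 5.69% of all genes.

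Genes that act on binding proteins came first. Pappa2, a protease that cuts Igfbp3 and Igfbp5, had only 13 to 56 counts a library. It averaged 1.01 ± 0.12 CPM with the conduit and 1.96 ± 0.98 CPM in NC, a log2 fold change of -0.96 ± 0.48 (SE). NC 3, at 0.940 CPM, lay within the conduit range of 0.884 to 1.11 CPM. The log2 fold change was -0.56 without NC 1, -1.29 without NC 3 and -0.32 with haemoglobin level as a covariate. Stc2, a stanniocalcin that inhibits PAPP-A, stood at 9.19, 39.1 and 3.77 CPM in the conduit libraries and at 16.4, 2.08 and 6.14 CPM in the NC libraries, and its log2 fold change of 1.08 ± 1.04 (SE) turned to -0.35 without conduit 2. The stanniocalcin Stc1 and the serine protease Htra1 were the other tested members of this list, whose median was -0.17. Pappa, the gene of PAPP-A itself, had no entry under that symbol, so its level is not known here. Igfbp1, the neighbour of Igfbp3 in the RefSeq table, had 0 counts in all 6 libraries, which allows at most 0.156 to 0.217 CPM. Igfals, the acid-labile subunit, had 3 to 15 counts a library and Igfbpl1 0 to 3, too few to be tested. Lrp1, an endocytic receptor that binds Igfbp3, averaged 935 ± 128 CPM with the conduit and 1204 ± 319 CPM in NC. Tmem219, reported as an Igfbp3 receptor, averaged 10.2 ± 1.08 CPM with the conduit and 11.6 ± 1.47 CPM in NC.

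Downstream of the receptor, 7 of 8 receptor adaptors and 14 of 18 genes of the PI3K-AKT-mTOR branch had a negative log2 fold change, with medians of -0.08 and -0.07. None of them passed the test, and among all genes 47% had a positive value. Of the adaptors, the receptor substrate Irs2 averaged 50.3 ± 13.3 CPM with the conduit and 62.4 ± 15.3 CPM in NC. Grb14, an inhibitor of insulin receptor signalling, averaged 30.2 ± 8.37 CPM with the conduit and 40.1 ± 17.6 CPM in NC. The Grb14 difference rested on NC 2 (59.8 CPM): its log2 fold change was -0.41, and -0.0037 without NC 2. The kinase gene Pdpk1, whose product activates AKT, stood at 16.6, 13.8 and 15.8 CPM in the conduit libraries and at 16.8, 19.4 and 17.3 CPM in the NC libraries. Rps6kb1, the S6 kinase, stood at 42.7, 41.2 and 44.7 CPM with the conduit and at 44.8, 46.1 and 49.4 CPM in NC. Both had all conduit libraries below all NC libraries, as did 2.88% of all genes. Their log2 fold changes were small, at -0.21 ± 0.14 and -0.12 ± 0.10 (SE), with an unadjusted p of 0.172 and 0.268 in edgeR.

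Foxo3, a transcription factor that AKT holds out of the nucleus, stood at 44.1, 40.2 and 50.4 CPM in the conduit libraries and at 36.8, 38.9 and 35.6 CPM in the NC libraries. It was the third gene whose groups did not overlap, with the conduit above NC, as in 2.81% of all genes. Its log2 fold change was 0.28 ± 0.12 (SE, unadjusted p 0.0675 in edgeR). Foxo1, of the same family, averaged 28.3 ± 0.87 CPM with the conduit and 34.2 ± 6.11 CPM in NC, a log2 fold change of -0.27 ± 0.15. In the growth hormone axis, which drives Igf1 transcription in liver, Socs2 averaged 13.2 ± 3.05 CPM with the conduit and 9.54 ± 2.19 CPM in NC. Cish, like Socs2 a feedback inhibitor induced by STAT5, averaged 10.7 ± 3.69 CPM with the conduit and 7.15 ± 4.35 CPM in NC. Their log2 fold changes were 0.47 ± 0.25 and 0.58 ± 0.50 (SE). That of Cish was 0.16 with haemoglobin level as a covariate, 0.26 without NC 2 and 1.17 without NC 3. Of the 7 genes in this list, 4 had a positive and 3 a negative log2 fold change, with a median of 0.08, and none passed the test. Of the Igf2 mRNA-binding proteins, Igf2bp1 had 0 counts in every library, and Igf2bp3 averaged 0.555 ± 0.282 CPM with the conduit and 0.746 ± 0.270 CPM in NC.

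**Figure D5:**
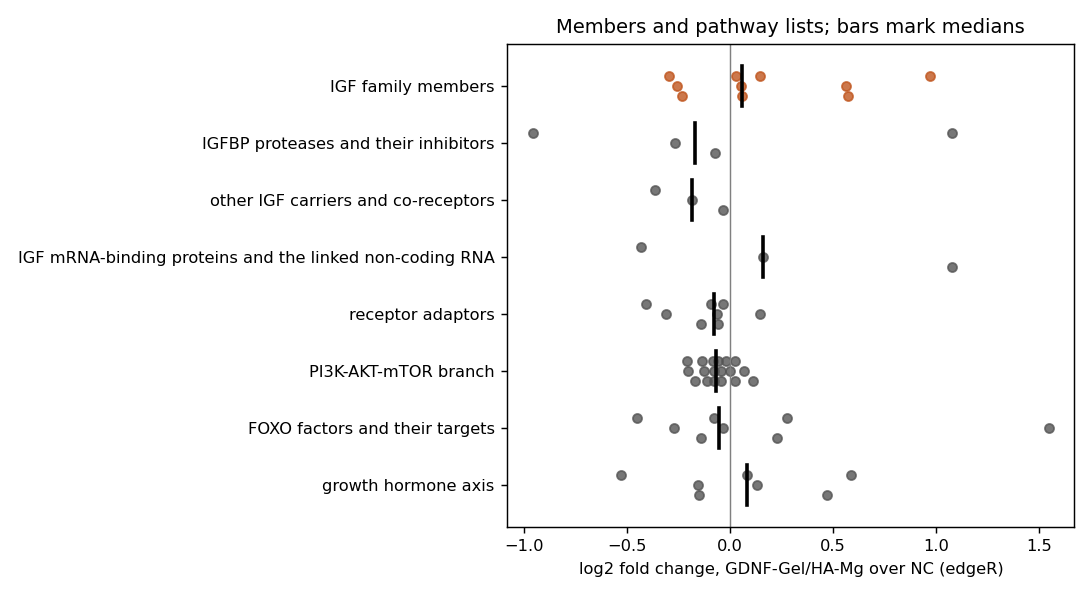
Log2 fold change, GDNF-Gel/HA-Mg over NC, of the 10 IGF family members and of 51 tested genes of 7 pathway lists (1 point a gene; bars mark medians). Medians lay between -0.18 and 0.16, and no gene passed the test.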

How the data were processed

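Polyadenylated RNA of 6 libraries was sequenced after a NEBNext Ultra RNA kit, per the labels' protocols. Strand is not mentioned, so overlapping or antisense genes may share reads. HISAT2, Bowtie2 2.2.8, DESeq2 and StringTie 1.3.1 are listed in the submitters' processing notes, while counter, build and annotation were not given in the sources used. The authors deposited estimated counts (expected counts) per gene, not whole for 1898 to 2085 of 23091 genes per library and whole for all members. They were rounded. Columns were matched to samples by name, and the treated columns lack the word GDNF. Every pair of libraries differed beyond sampling noise in a chi-square comparison.

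Genes were filtered with filterByExpr (13999 left), scaled by TMM and fitted with group alone in edgeR 4.0.16 (R 4.3.3), whose quasi-likelihood test is two-sided. Benjamini-Hochberg adjustment ran over all genes, with calls at an adjusted p under 0.05. SE is the log2 fold change over the root of F. Centred log2 CPM used a prior count of 2. The test was checked on simulated counts. DESeq2 1.42.0 and limma 3.58.1 (voom) were alternatives, with other scalings, filters, a replicate block, a haemoglobin covariate and each library left out. Transcript lengths and protein sequences were not analysed here, so levels are not compared between genes.

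Members and lists were chosen with earlier results of these data known. Named pathway genes are the 2 per list with the smallest unadjusted p (others were named after their values were seen). Genes alike in pattern needed a mean log2 CPM of at least 2. Motifs were chosen after the promoters were read. Sequences come from RefSeq (GRCr8). Figures used matplotlib 3.10.9.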

Additional observations from a re-analysis of the deposited data

How the results depend on the processing

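No member and none of the 51 pathway genes was called under any of the 15 alternatives. Over the whole table edgeR called 0 genes, with 241 at an unadjusted p under 0.05, and DESeq2 called 11, none a member. That count of 241 was 566 without NC 2, 545 without NC 3, 167 to 287 without any of the other libraries and 1224 with the haemoglobin covariate. The members below that p were 0, or Igfbp3 alone (with the replicate block, without conduit 3 or without NC 1). Igf2r and Igfbp3 kept a positive log2 fold change in all 15 alternatives (0.09 to 0.23 and 0.45 to 0.81). With 1 library left out, the log2 fold change ran from -0.68 to 0.19 for Igf1, -0.17 to 0.87 for Igf2, -0.54 to -0.0053 for Igf1r, 0.18 to 1.70 for Igfbp2, -0.31 to 0.32 for Igfbp4, -0.11 to 0.26 for Igfbp5, -0.37 to 0.016 for Igfbp6, -0.14 to 0.17 for Igfbp7 and -0.35 to 2.08 for Stc2. With haemoglobin level as a covariate the sign also turned for Igf1r (0.23), Igfbp4 (-0.15) and Igfbp7 (-0.037), and with limma-voom for Igfbp2 (-0.55). The cause was not tested. Libraries with the same replicate number did not deviate alike: deviations of conduit and NC libraries with the same number correlated at 0.10, -0.72 and 0.06. With 3 libraries per group, these values cannot show whether a shared number marks paired samples or a shared batch. With the replicate block, 0 members and 0 genes were called, and Igfbp3 had a log2 fold change of 0.57 (unadjusted p 0.0425, adjusted p 1.0 in edgeR, range over the 15 alternatives 0.579 to 1.0). With RLE scaling, all 12 genes most alike in pattern stayed the same. Igfbp2 had the fewest counts of the members, 0 to 84 a library.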
